A study of Mus musculus with 9 samples.

Results

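The 9 genes described here, Runx2, Sp7, Alpl, Bglap, Ibsp, Spp1, Dmp1, Phex and Bmp3, are genes of the osteoblast lineage, the cells that build bone. They were chosen by name and matched to the gene names of the array probes, which name 37325 genes in all. All 9 passed the filter on dim probes and so were among the 29410 genes tested. Dmp1, Phex and Bmp3 passed it only through the 3 dpi arrays, the only group with all 3 arrays well above background for them. Counts and medians over the 9 genes therefore cannot serve as support for a difference between the groups.

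The arrays measured mature megakaryocytes (mMKs), the marrow cells that release platelets, from male mice, with 3 arrays in each of 3 groups. Ctrl mice were sham-irradiated (0 Gy). The other groups were sampled 1 and 3 days post irradiation (1 and 3 dpi) after 5 Gy of γ-ray IR. By the methods text, marrow came from femur and tibia and mMKs were taken by positive selection for CD41 and then CD42d, surface proteins of megakaryocytes, and the design text states that each experiment used cells of different donors.

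Runx2 and Sp7 encode transcription factors that commit mesenchymal precursors to bone formation. Alpl, Bglap, Ibsp and Spp1 encode an enzyme and secreted proteins of the mineralising matrix, while Dmp1 and Phex belong to osteocytes, the osteoblasts that become walled into bone. Bmp3 encodes a secreted factor of the bone morphogenetic protein (BMP) family.

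Intensities are given as log2 values after the 75th percentile of each array was subtracted, so 0 is the level that 75% of the spots of an array lay below. A probe counted as measured on an array where the deposited file marked it as well above background, and a gene was read from its brightest probe. Probe positions are those of the array annotation, on mouse genome build mm9. A gene is said to have risen or fallen where the adjusted p was below 0.05 and the difference at least 2-fold, which is 1 in log2. A p that misses this threshold does not show that values did not differ. The share of spots well above background was 69.1%, 79.5% and 80.8% in Ctrl replicates 1, 2 and 3, 72.3%, 74.8% and 75.6% at 1 dpi, and 81.8%, 81.6% and 81.8% at 3 dpi.

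Ctrl replicate 1 stood apart from the other Ctrl arrays and was the only array on its slide. Its log2 values differed from those of Ctrl replicates 2 and 3 with a standard deviation of 0.68 in both cases, against 0.24 between replicates 2 and 3. Results for the members are therefore given with it and without it. The 1 dpi arrays had less signal, and the 7939 probes that were dim on all 9 arrays had a median difference of 0.81 at 1 dpi versus Ctrl, which quantile normalisation brought to 0.01. At 3 dpi this median was -0.08. Differences of dim member probes at 1 dpi therefore have to be read beside 0.81.

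The 14 megakaryocyte markers, with Pf4 the brightest, were measured on all 9 arrays. Their median difference was -0.05 at 1 dpi (-0.31 under quantile normalisation, -0.36 under median scaling) and -0.01 at 3 dpi, and 0 of them rose or fell (1 fell at 1 dpi under median scaling), but single markers lay on either side, such as Gp1ba (-0.82 at 1 dpi), Gp6 (0.95 at 3 dpi) and Gata1 (-0.80 at 3 dpi). Their summed linear level was 155, 138 and 138 in Ctrl, 146, 133 and 131 at 1 dpi, and 146, 144 and 143 at 3 dpi. Itga2b, which encodes CD41, differed by 0.69 and -0.03, and Gp5, which encodes CD42d, by -0.54 and -0.28. In bulk samples such as these, fewer cells of a type and less RNA per cell cannot be told apart, and the same holds for more cells and more RNA.

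Several osteoblast genes rose after IR, and some of them rose further between 1 and 3 dpi. At 1 dpi 4 of the 9 genes rose (Spp1, Bglap, Alpl and Dmp1), where 12.3% of all genes and 11.6% of all probes tested rose and 2.87% of genes fell. Of these 4, Dmp1 was measured on 0 arrays at 1 dpi and lost its call in 15 of 20 other settings. At 3 dpi 6 of the 9 rose (Bglap, Dmp1, Spp1, Phex, Alpl and Ibsp), or 4 under normexp, a model-based background correction, with quantile normalisation, against 6.98% of all genes and 6.58% of all probes rising and 1.82% of genes falling. Between the time points, 6 of the 9 were higher at 3 than at 1 dpi (Bmp3, Phex, Dmp1, Ibsp, Bglap and Alpl), against 3.97% of all genes higher and 4.82% lower. This count was 3 of 9 under normexp with quantile normalisation and 3 of 6 with a filter on all 9 arrays that was added after the data had been seen. The median over the 9 genes was 0.88 at 1 dpi and 2.71 at 3 dpi beside all-gene medians of 0.25 and 0.11, to which every difference below can be compared. It was 0.32 and 0.88 under normexp with quantile normalisation, and 0.56 and 2.58 under median scaling. Over the 6 members measured on all 9 arrays the median was 1.29 at 1 dpi and 2.35 at 3 dpi. Both comparisons share the Ctrl arrays.

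**Figure D1:**
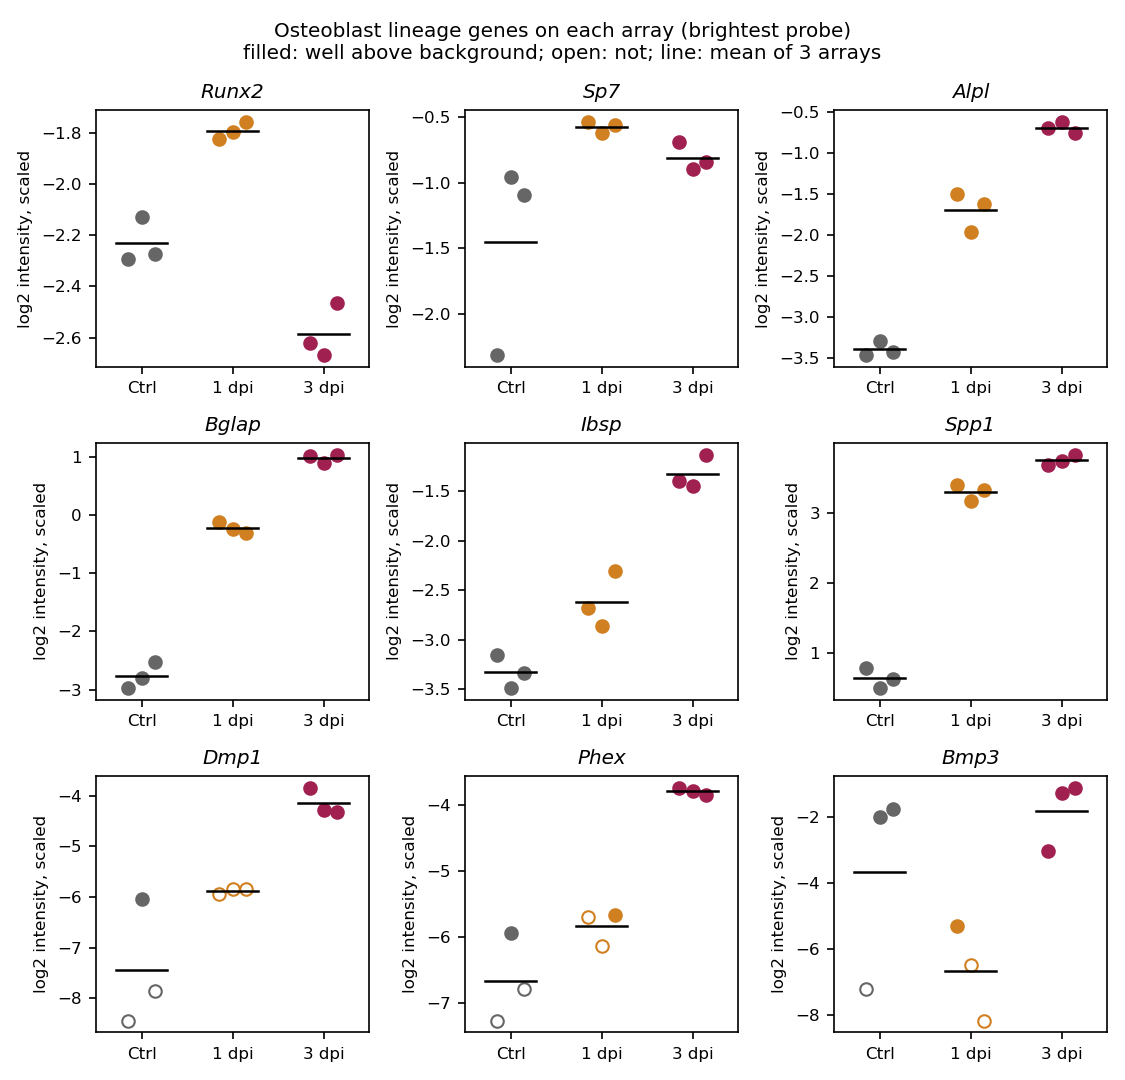
Scaled log2 intensity (vertical axis) of the 9 osteoblast genes on each array of the Ctrl, 1 dpi and 3 dpi groups (horizontal axis), with filled points well above background, open points not, and a line at the group mean. Bglap moved from a mean of -2.76 in Ctrl to -0.23 at 1 dpi and 0.98 at 3 dpi, while Runx2 stayed between means of -2.58 and -1.79.

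Runx2, the transcription factor without which no osteoblasts form, differed little between the groups. Its brightest probe (chr17:44744925-44744984) read -2.29, -2.13 and -2.27 on the Ctrl arrays, -1.82, -1.80 and -1.76 at 1 dpi, and -2.62, -2.67 and -2.46 at 3 dpi. All 1 dpi arrays thus lay above all Ctrl arrays and all 3 dpi arrays below them, without overlap. The differences stayed below 2-fold, with 0.44 at 1 dpi (95% confidence interval 0.26 to 0.62, adjusted p 0.0022) and -0.35 at 3 dpi (-0.53 to -0.17, adjusted p 0.00968). The 1 dpi value depended on the scaling, with 0.28 under quantile normalisation and 0.12 (adjusted p 0.4) under median scaling. From 1 to 3 dpi Runx2 differed by -0.79 (adjusted p 0.000205), also below 2-fold. Leaving Ctrl replicate 1 out gave 0.41 and -0.38 against Ctrl.

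Other probes placed Runx2 differently. A probe at chr17:44633034-44633093 differed by -0.21 at 1 dpi and -0.27 at 3 dpi (adjusted p 0.179 and 0.134), and by -0.25 and -0.31 without Ctrl replicate 1. A dimmer probe at chr17:44951128-44951187 was not well above background in Ctrl replicate 1 and read -6.25 and -6.36 on the other Ctrl arrays, -5.34, -5.34 and -5.17 at 1 dpi, and -6.06, -5.52 and -5.56 at 3 dpi. It rose by 1.42 at 1 dpi (adjusted p 0.00697) and differed by 0.99 at 3 dpi (adjusted p 0.0479), or by 1.02 and 0.59 without Ctrl replicate 1. The 1 dpi values stand beside the 0.81 of dim probes. The sign of the Runx2 difference at 3 dpi thus depended on the probe.

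Sp7, which encodes osterix and acts downstream of Runx2, lay above Ctrl on every irradiated array. Its brightest probe (chr15:102187136-102187195) read -2.31, -0.96 and -1.09 in Ctrl, -0.54, -0.62 and -0.56 at 1 dpi, and -0.69, -0.90 and -0.84 at 3 dpi. Much of the gap came from Ctrl replicate 1, which was far below the other Ctrl arrays. The differences were 0.88 at 1 dpi (0.13 to 1.62, adjusted p 0.0479) and 0.64 at 3 dpi (adjusted p 0.173), both below 2-fold, the former 0.56 (adjusted p 0.0725) under median scaling, and without Ctrl replicate 1 they were 0.45 (adjusted p 0.00299) and 0.21 (adjusted p 0.0805). In other settings Sp7 passed at 1 dpi in 3 of 20, with differences of up to 1.13, and at 3 dpi in 1 of 20. Between the time points Sp7 differed by -0.24 (adjusted p 0.581).

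A dimmer Sp7 probe at chr15:102187692-102187751 showed a wider gap. It was not well above background in Ctrl replicate 1, read -5.32 and -4.97 on the other Ctrl arrays, -3.95, -4.07 and -4.41 at 1 dpi, and -4.18, -3.77 and -3.83 at 3 dpi. On this probe Sp7 rose by 1.37 at 1 dpi (adjusted p 0.00671), beside the 0.81 of dim probes, and by 1.59 at 3 dpi (adjusted p 0.00545). These rises were 1.01 and 1.22 without Ctrl replicate 1. A Sp7 probe at chr15:102188735-102188794 was dim on all 9 arrays and was not tested.

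Alpl encodes the alkaline phosphatase that frees phosphate for mineral, and on its brightest probe it rose by 1 dpi and further by 3 dpi. The brightest Alpl probe (chr4:137297658-137297716) read -3.46, -3.30 and -3.42 in Ctrl, -1.49, -1.96 and -1.62 at 1 dpi, and -0.68, -0.62 and -0.75 at 3 dpi. No array of any group overlapped those of another, and the replicates lay close together. Alpl rose by 1.70 at 1 dpi (1.42 to 1.99, adjusted p 2.98e-05), which is 3.26-fold, and by 2.71 at 3 dpi (2.42 to 2.99, adjusted p 2.78e-06), which is 6.54-fold. Between 1 and 3 dpi it rose by 1.01 (adjusted p 0.000536), just over 2-fold, a call that failed in 4 of 21 other settings and was 0.40 (adjusted p 0.229) as a mean over probes. Without Ctrl replicate 1 the differences from Ctrl were 1.67 and 2.67.

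Another Alpl probe (chr4:137309921-137311022) reads a part of the transcript nearer its start. On it Alpl read -5.12, -3.47 and -3.30 in Ctrl, -2.83, -3.09 and -2.88 at 1 dpi, and -3.09, -2.97 and -3.34 at 3 dpi. Only Ctrl replicate 1 was low, and Ctrl replicate 3 overlapped the 3 dpi arrays. The differences were 1.03 and 0.83 (adjusted p 0.073 and 0.185), neither of which passed, and without Ctrl replicate 1 they were 0.46 and 0.25, and from 1 to 3 dpi this probe differed by -0.20. The rise in Alpl therefore rests on the brightest probe.

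Bglap, the gene of osteocalcin, which mature osteoblasts secrete, rose at both times and further between them. It read -2.97, -2.80 and -2.52 in Ctrl (chr3:88188307-88188366), -0.12, -0.25 and -0.32 at 1 dpi, and 1.01, 0.90 and 1.03 at 3 dpi. The groups were far apart and none overlapped. Bglap rose by 2.54 at 1 dpi (2.26 to 2.81, adjusted p 3.79e-06), or 5.80-fold, and by 3.75 at 3 dpi (3.47 to 4.02, adjusted p 5.21e-07), or 13.4-fold. From 1 to 3 dpi it rose by 1.21 (adjusted p 0.000211). The rises were 2.43 and 3.64 without Ctrl replicate 1.

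The other Bglap probe (chr3:88187792-88187851) was dim. It was well above background on 0 Ctrl arrays, on 1 array at 1 dpi (-5.36) and on all 3 at 3 dpi (-5.94, -5.76 and -5.90). Here and below, "at least" is used where a probe was measured on 0 arrays of a group, whose values were then set no lower than the dimmest measured spot of each array. On that footing this Bglap probe was at least 1.65-fold higher at 3 dpi than in Ctrl, with a difference of 1.11 that passed the test (adjusted p 0.0167). This difference was 0.95 without Ctrl replicate 1 and did not pass.

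Bglap lies beside its close relatives Bglap2 and Bglap3, and their probes were examined because such similar genes can be read by each other's probes. Bglap2 (chr3:88181822-88181881) rose by 2.79 and 3.97 and Bglap3 (chr3:88172673-88172732) by 2.68 and 3.92 at 1 and 3 dpi. The Bglap probe spans the start codon, and its last 31 bases, from the start codon on, are printed below, with the whole Bglap2 probe and the part of the Bglap3 probe up to the stop codon. Capitals mark a stretch of 25 bases that the Bglap2 and Bglap3 probes share with 2 bases different. No comparison was made of the Bglap probe with these probes or with the Bglap2 and Bglap3 transcripts. The accessions the array lists for the Bglap2 probe include 1 transcript of Bglap. How much of each signal came from which of the 3 genes was not tested.
Bglap probe: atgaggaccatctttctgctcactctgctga
Bglap2 probe: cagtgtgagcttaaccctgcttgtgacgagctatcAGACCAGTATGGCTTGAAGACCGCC
Bglap3 probe: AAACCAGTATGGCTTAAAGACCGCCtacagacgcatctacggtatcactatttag

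Ibsp, which encodes bone sialoprotein, was higher mainly at 3 dpi. It read -3.15, -3.48 and -3.33 in Ctrl (chr5:104739720-104739779), -2.68, -2.86 and -2.31 at 1 dpi, and -1.39, -1.45 and -1.13 at 3 dpi. The 1 dpi arrays lay just above Ctrl and the 3 dpi arrays well above both. The difference of 0.71 at 1 dpi (0.33 to 1.08, adjusted p 0.00759) was below 2-fold and missed the threshold under other scalings (0.45 with adjusted p 0.0885 under quantile normalisation, 0.39 with 0.141 under median scaling), whereas Ibsp rose by 2.0 at 3 dpi (1.62 to 2.38, adjusted p 6.17e-05), or 4.0-fold. It also rose from 1 to 3 dpi, by 1.29 (adjusted p 0.000628). Without Ctrl replicate 1 the differences from Ctrl were 0.79 and 2.08.

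Spp1 encodes osteopontin, a secreted protein that macrophages and other cells make as well as osteoblasts, and it was the brightest of the 9 genes on these arrays. It read 0.79, 0.50 and 0.63 in Ctrl (chr5:104869788-104869847), 3.40, 3.17 and 3.33 at 1 dpi, and 3.68, 3.73 and 3.83 at 3 dpi. Most of the gap was there at 1 dpi, and all 3 dpi arrays lay slightly above all 1 dpi arrays. Spp1 rose by 2.66 at 1 dpi (2.43 to 2.88, adjusted p 1.34e-06) and by 3.10 at 3 dpi (2.88 to 3.33, adjusted p 5.09e-07), which are 6.30-fold and 8.60-fold. The 0.45 between the time points (adjusted p 0.0071) was below 2-fold, and the rises without Ctrl replicate 1 were 2.73 and 3.18.

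Dmp1, which encodes a matrix protein of osteocytes, was measured with certainty only at 3 dpi. It was well above background on 1 Ctrl array (-6.05 in replicate 2), on 0 arrays at 1 dpi and on all 3 at 3 dpi (-3.85, -4.29 and -4.33, chr5:104642918-104642977). The 3 dpi arrays lay far above all others. Dmp1 rose by 3.29 at 3 dpi (2.04 to 4.55, adjusted p 0.00249), a size that is inexact with only 1 Ctrl array measured, and it was at least 2.99-fold higher at 3 than at 1 dpi (difference 1.72, adjusted p 0.0338). At 1 dpi it passed the test with 1.58 (0.32 to 2.83, adjusted p 0.0383) although no 1 dpi array measured it, a value that stands beside the 0.81 of dim probes. Without Ctrl replicate 1 the 1 dpi difference was 1.08 (adjusted p 0.0895) and no longer passed, while that at 3 dpi was 2.80 (adjusted p 0.00395).

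Phex encodes a membrane peptidase of osteoblasts and osteocytes that helps to keep phosphate in the body, and it resembled Dmp1. It was well above background on 1 Ctrl array (-5.94), on 1 array at 1 dpi (-5.67) and on all 3 at 3 dpi (-3.74, -3.79 and -3.86, chrX:153596731-153596790). Ctrl and 1 dpi arrays overlapped, and the 3 dpi arrays lay clear of both. Phex rose by 2.87 at 3 dpi (2.16 to 3.59, adjusted p 0.000275) and by 2.04 from 1 to 3 dpi (adjusted p 0.00144), sizes that are inexact because most Ctrl and 1 dpi arrays did not measure it, while the 0.83 at 1 dpi missed the threshold (adjusted p 0.0508). Leaving Ctrl replicate 1 out gave 2.57 at 3 dpi and 0.53 at 1 dpi. Over 20 other settings the Phex difference at 1 dpi ran from 0.03 to 1.34 and passed in 3.

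Another Phex probe (chrX:153676300-153676359) was measured on 0 arrays of Ctrl and 0 at 1 dpi. At 3 dpi it read -5.00, -5.09 and -5.31, and Phex was at least 2.75-fold higher there than in Ctrl (adjusted p 7.22e-05) and at least 1.55-fold higher than at 1 dpi (adjusted p 0.00416). The 3 dpi difference from Ctrl also passed without Ctrl replicate 1 (adjusted p 0.000107). The probe's 1.66 at 1 dpi versus Ctrl (adjusted p 0.000911) passed between groups that were both below background, so no fold is given for it.

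Bmp3, a BMP family member that counteracts bone-forming BMPs, varied most between replicates. Its brightest probe (chr5:99308890-99308949) was not measured in Ctrl replicate 1 and read -2.0 and -1.75 on the other Ctrl arrays, was measured on 1 array at 1 dpi (-5.30), and read -3.02, -1.27 and -1.11 at 3 dpi. The 3 dpi arrays thus overlapped with Ctrl, and Ctrl replicate 1 was as low as the 1 dpi arrays. Neither the -3.0 at 1 dpi (-6.48 to 0.48, adjusted p 0.121) nor the 1.85 at 3 dpi (-1.63 to 5.34, adjusted p 0.384) passed, but Bmp3 rose by 4.85 from 1 to 3 dpi (1.37 to 8.34, adjusted p 0.0319). Without Ctrl replicate 1, Bmp3 fell at 1 dpi (-4.78, adjusted p 0.00378) and differed by 0.07 at 3 dpi. The Bmp3 difference at 1 dpi was below 0 in all 20 settings tried (-4.78 to -0.78) and passed in 4 of them, with too few arrays measured to give its size.

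A dimmer Bmp3 probe did not share this course. The probe at chr5:99301868-99301927 was measured on 1 Ctrl array (-6.66), on 1 array at 1 dpi (-5.50) and on all 3 at 3 dpi (-5.32, -5.50 and -5.39), and rose by 1.44 at 1 dpi and 1.90 at 3 dpi (adjusted p 0.0402 and 0.022). Leaving out Ctrl replicate 1, it differed by 0.85 at 1 dpi (adjusted p 0.0517), which does not pass and stands beside the 0.81 of dim probes, and rose by 1.30 at 3 dpi (adjusted p 0.0165). A Bmp3 probe at chr5:99312427-99312486 was measured on 2 arrays at 3 dpi (-6.21 and -6.37) and was not tested.

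**Figure D2:**
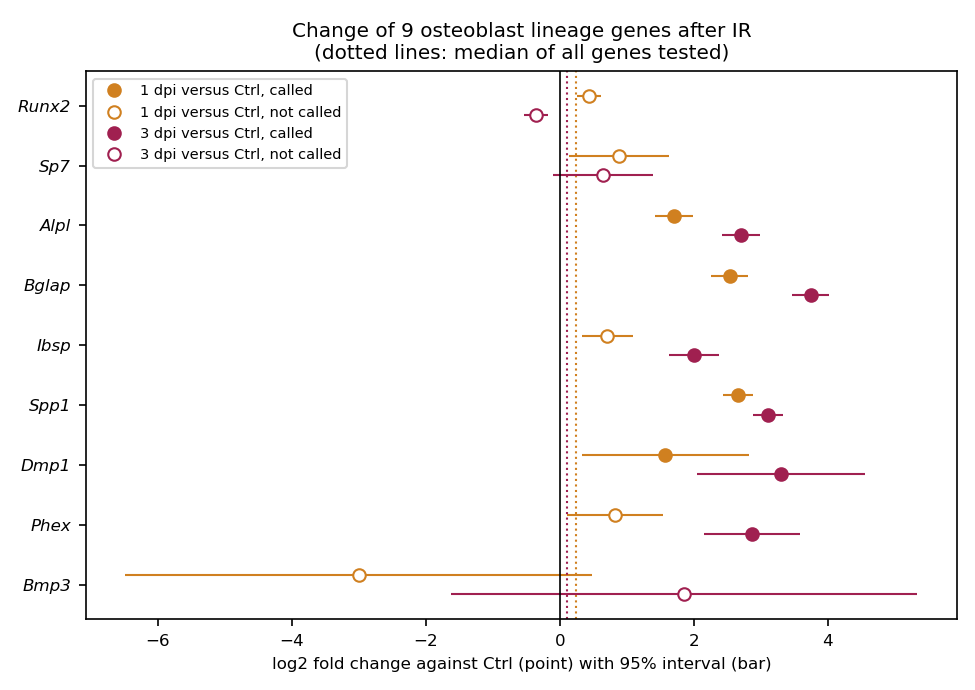
Log2 difference from Ctrl at 1 and 3 dpi (horizontal axis) of each osteoblast gene, with bars for the 95% confidence interval, filled points for genes that rose or fell, and dotted lines at the all-gene medians of 0.25 and 0.11. The bar of Bmp3 at 1 dpi runs from -6.48 to 0.48, whereas that of Spp1 runs from 2.43 to 2.88.

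Set against all genes tested, the osteoblast genes spread from the middle to the extremes. Dmp1, Phex and Bmp3 are not ranked here, since most Ctrl or 1 dpi arrays did not measure them. At 1 dpi Spp1 had a larger difference than 99.0% of genes, Bglap than 98.9%, Alpl than 96.5%, Sp7 than 81.9%, Ibsp than 74.2% and Runx2 than 60.2%. At 3 dpi the shares were 99.7% for Bglap, 99.3% for Spp1, 98.9% for Alpl, 97.3% for Ibsp, 84.1% for Sp7 and 13.5% for Runx2. On their brightest probes, all 4 matrix genes thus ranked above Sp7 and Runx2 at 3 dpi, whereas at 1 dpi Ibsp ranked below Sp7. That 1 dpi order rested on Ctrl replicate 1, without which the differences were 0.79 for Ibsp and 0.45 for Sp7. The 3 dpi order depended on the probe. At 3 dpi the other Alpl probe (0.83) and the other Bglap probe (1.11) lay below the dimmer Sp7 probe that was tested (1.59). Ibsp and Spp1 have 1 probe each.

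**Figure D3:**
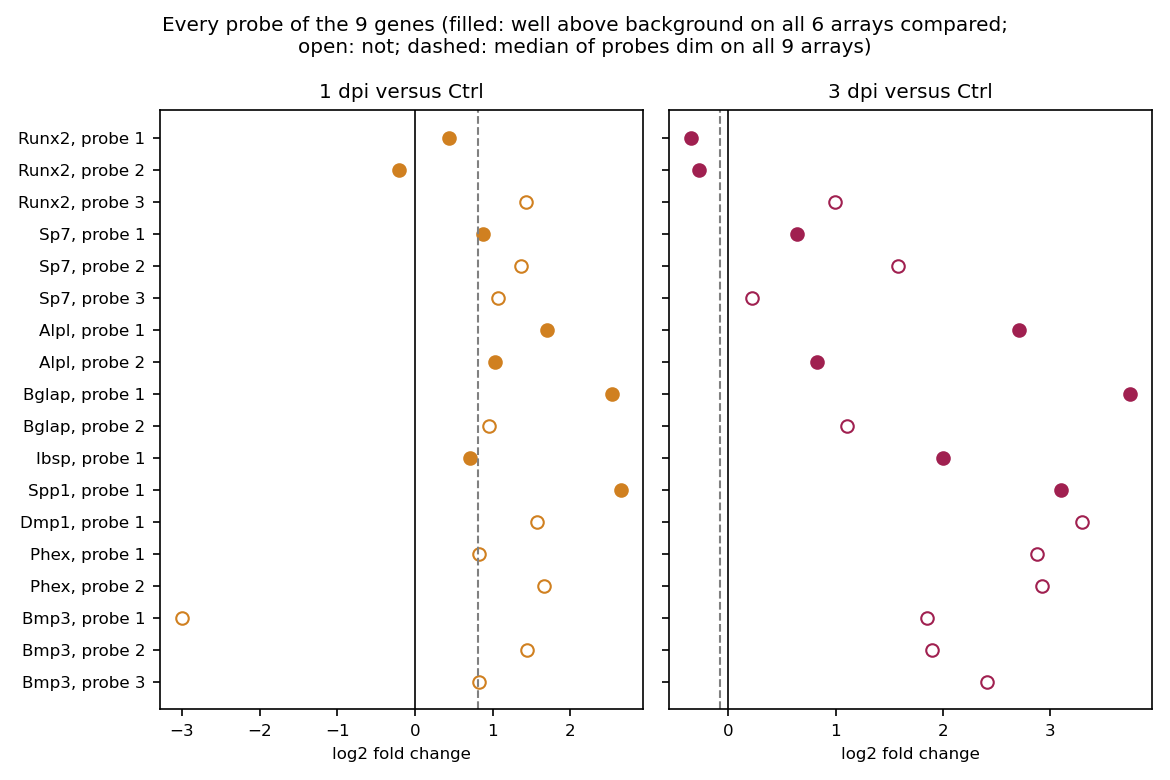
Log2 difference from Ctrl (horizontal axis) at 1 dpi (left) and 3 dpi (right) of every probe of the 9 osteoblast genes, filled where all 6 arrays compared were well above background, with a dashed line at the median of probes dim on all 9 arrays (0.81 and -0.08). The brightest Alpl probe stands at 1.70 and 2.71 and the other Alpl probe at 1.03 and 0.83.

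The course over the 9 arrays was compared gene by gene, with each gene set to 0 at its Ctrl mean and likeness given as the root mean square difference (RMS, in log2), so that 0 is an identical course. Of the 6 members measured on all 9 arrays, Bglap and Spp1 were closest (0.411), followed by Alpl and Spp1 (0.611), and Sp7 and Runx2 were 0.712 apart. Distances of Dmp1, Phex and Bmp3 are not compared, since part of their course was background.

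Among all genes tested, the closest to each of these 6 were of many kinds, and no test was made of these likenesses. Closest to Spp1 was Sparc, the gene of osteonectin (0.109). Closest to Alpl was the collagen gene Col11a1 (0.12), followed by the immune cell genes Siglec1 (0.151) and Clec4n (0.155). BC024984 was closest to Bglap (0.106), followed by Bglap3 (0.14) and Adamts9 (0.15). Ibsp stood closest to Samd4 (0.153) and Runx2 to Enkur (0.0517). For Sp7 (0.0425) it was a transcript the array names only by position.

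Dmp1, Ibsp and Spp1 lie together on chromosome 5, in a cluster of genes for secreted proteins of bone and tooth. Mepe, between Ibsp and Spp1, differed by 0.84 at 1 dpi and 0.89 at 3 dpi, and Sparcl1, on the far side of Dmp1, differed by 0.94 at 1 dpi and rose by 1.13 at 3 dpi (adjusted p 0.00109). Dspp, next to Dmp1, did not pass the filter. At 1 and 3 dpi, Pkd2, on the other side of Spp1, differed by 1.0 and 0.19, Hsd17b13 by 0.76 and 0.15, Nudt9 by -0.38 and 0.14, and Hsd17b11 by -0.32 and -0.16.

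Runx2 binds the bases TGTGGT, so the 250 bases before the transcription starts of the members were searched for TGTGGT or, on the other strand, ACCACA. Starts were known for 7 of the 9 genes, all but Sp7 and Bmp3, and 4 of their 10 starts had a match, against 14.0% of the 32851 starts of all genes. They were a start of Bglap (-132), the first start of Spp1 (-128) and later starts of Runx2 (-80) and Dmp1 (-164). A match is a description of the sequence and does not show a site in use. Alpl, which like Bglap and Spp1 rose at both times, had no match at its starts. The Bglap and Spp1 promoters are printed because they hold a match at the first start of a gene that rose at both times. They are taken from RefSeq GRCm38.p6, 5' to 3' on the strand of the gene, with the match in capitals. They lie at chr3:88384467-88384716 on the minus strand and at chr5:104434861-104435110 on the plus strand.
Bglap promoter: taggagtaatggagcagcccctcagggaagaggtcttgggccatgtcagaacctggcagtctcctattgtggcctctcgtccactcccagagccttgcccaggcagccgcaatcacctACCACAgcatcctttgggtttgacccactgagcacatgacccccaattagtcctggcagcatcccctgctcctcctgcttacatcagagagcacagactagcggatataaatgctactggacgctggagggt
Spp1 promoter: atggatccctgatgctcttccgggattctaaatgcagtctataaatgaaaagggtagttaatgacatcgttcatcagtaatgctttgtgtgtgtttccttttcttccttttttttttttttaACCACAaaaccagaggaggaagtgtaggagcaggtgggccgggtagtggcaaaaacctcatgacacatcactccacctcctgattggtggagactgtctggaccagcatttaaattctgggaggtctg

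Genes that act with the 9 members were read next, in lists that share no gene with them. The bone matrix list moved most. Of its 19 tested genes, 12 rose at 1 dpi and 12 at 3 dpi while 0 fell, with medians of 1.66 and 2.22. Both counts include Bglap2 and Bglap3, whose signals were not separated from that of the member Bglap. Under normexp with quantile normalisation 9 and 11 rose, with medians of 0.90 and 1.42. The collagen genes Col1a1 (2.22 and 3.15) and Col1a2 (2.36 and 3.50), Sparc (2.55 and 3.16), Lox (2.64 and 3.62) and Mmp13 (2.15 and 4.25) rose at both times, and Omd rose at 3 dpi alone (3.04). Like Alpl and Bglap, these are products of differentiated osteoblasts, although fibroblasts and other stromal cells also make collagen and Sparc. Not all genes of the list took this course, and at each time 7 of the 19 neither rose nor fell. Smpd3 (-0.655 and 0.003) and Cdh11 (0.41 and -0.15) passed at neither time. Phospho1 rose at 1 dpi alone, with a difference of 0.35 at 3 dpi. Bgn did the same on its brightest probe, with 0.70 at 3 dpi. Another Bgn probe that passed the filter differed by 2.91 at 1 dpi and 3.56 at 3 dpi. Such spread between probes was not limited to Bgn. At 3 dpi the probes that passed ran from -0.02 to 3.30 for Sparc and from 0.47 to 3.43 for Col1a1.

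Most of the other regulators of bone formation neither rose nor fell at 1 or 3 dpi, but some rose. Of 12 regulators, 4 rose at 1 dpi and 3 at 3 dpi (0 and 1 under normexp with quantile normalisation), with medians of 0.27 (-0.04 under median scaling) and 0.04 (-0.08 under quantile normalisation or median scaling). Dlx5, whose product acts with Runx2, rose by 1.98 and 2.67, with 2 Ctrl arrays measured. Twist1, whose product holds Runx2 back, was measured on 0 Ctrl arrays, on 1 array at 1 dpi and on all 3 at 3 dpi. It was at least 3.04-fold higher at 3 dpi than in Ctrl. Its difference of 1.92 at 1 dpi passed but is inexact and stands beside the 0.81 of dim probes. Twist1 and Twist2 passed the filter only through 3 dpi, and Twist2, counted among the 4, was measured on 0 arrays of Ctrl and of 1 dpi. With the filter on all 9 arrays, added after the data had been seen, 1 and 0 of 9 regulators rose. Of 5 osteocyte genes tested, 3 rose at 1 dpi and 2 at 3 dpi (medians 1.17 and 0.89), or 1 at 1 dpi under median scaling and 0 under normexp with quantile normalisation (median 0.48). Of these 5 osteocyte genes, 1 was higher at 3 than at 1 dpi (median 0.05), or 2 under median scaling (median 0.24). Gja1 (1.19 and 2.86) and Fam20c (1.17 and 1.99) rose at both times and Pdpn at 1 dpi alone (1.52, and 0.83 at 3 dpi), whereas Fgf23, which Dmp1 and Phex keep low in bone, differed by 0.01 and -0.03.

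Signalling genes around Bmp3 and Runx2 were mixed. Of 22 BMP pathway genes, 6 rose at 1 dpi and 5 at 3 dpi, with medians of 0.33 (0.01 under median scaling, where 5 rose and 3 fell, and 0.24 under normexp with quantile normalisation, where 2 rose) and 0.25, among them Bmp4 (2.98 and 3.55), Bmp5 (2.43 and 3.99), Bmp6 (1.40 and 2.91, with 2 Ctrl arrays measured) and the BMP antagonist gene Grem1 (1.52 and 3.66). Of 11 Wnt pathway genes, 2 rose and 2 fell at 1 dpi and 4 rose and 1 fell at 3 dpi, with medians of 0.22 (-0.21 under quantile normalisation, -0.10 under median scaling) and 0.30 (0.18 under median scaling). Without Ctrl replicate 1 these medians were 0.10 and 0.18, and 3 Wnt pathway genes fell at 1 dpi and 2 at 3 dpi. The Wnt antagonist gene Wif1 rose by 1.87 and 3.80, whereas Lef1, whose product can act with Runx2, fell by 3.26 and 1.95. Of 9 genes for receptors of osteopontin and bone sialoprotein, the products of Spp1 and Ibsp, only Itgb5 rose, at 3 dpi (1.12), and the medians were -0.17 and 0.32. Under median scaling 0 rose and the medians were -0.49 and 0.20.

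Osteoclasts dissolve the bone that osteoblasts lay down, and osteoblast lineage cells make the factor, encoded by Tnfsf11, that osteoclasts need. Tnfsf11 was measured on 1 Ctrl array, on 2 arrays at 1 dpi and on all 3 at 3 dpi, so its differences of 1.40, beside the 0.81 of dim probes, and 3.39, which both passed, are inexact. Tnfrsf11a, which encodes its receptor, rose by 1.18 and 1.51. Of the 13 osteoclast genes, 6 rose at 1 dpi and 7 at 3 dpi, with medians of 0.72 and 1.11. Under quantile normalisation, median scaling and normexp alike only 2 rose at 1 dpi, with medians of 0.67, 0.40 and 0.45. Ctsk, Acp5 and Atp6v0d2 rose at 3 dpi by 2.11, 1.11 and 3.27.

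**Figure D4:**
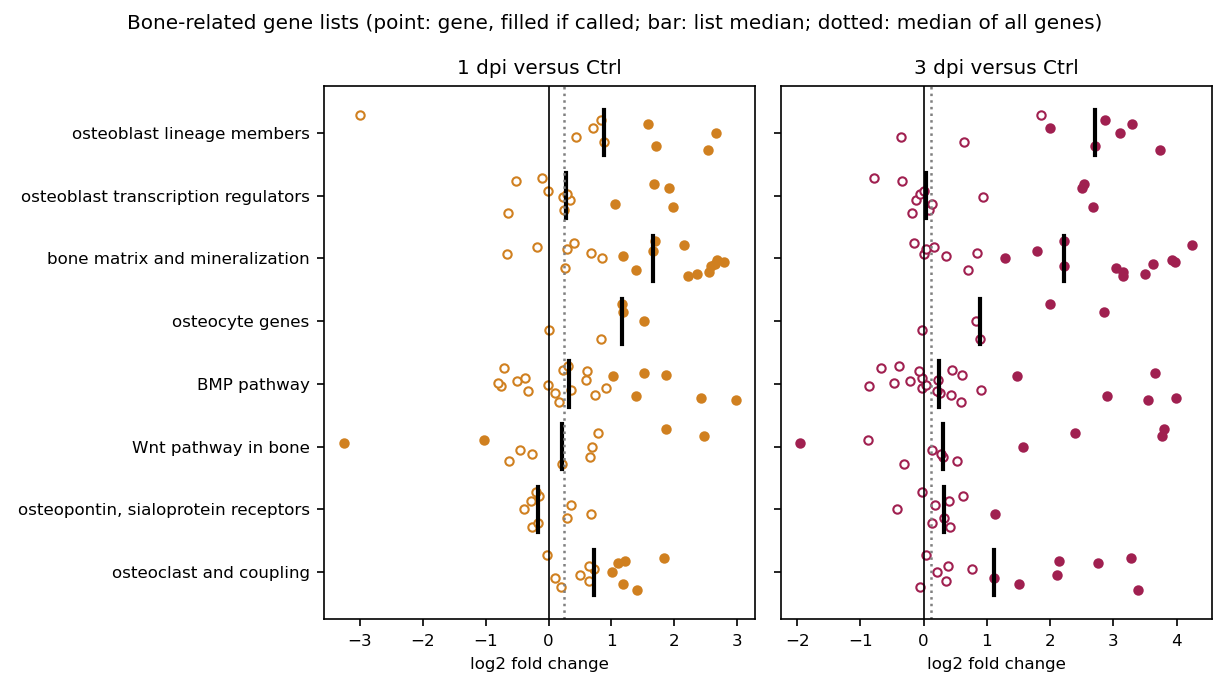
Log2 difference from Ctrl (horizontal axis) at 1 dpi (left) and 3 dpi (right) of each gene of the osteoblast members and of lists of related genes (vertical axis), filled where the gene rose or fell, with a bar at the list median and dotted lines at the all-gene medians. Bone matrix genes had medians of 1.66 and 2.22, and regulators 0.27 and 0.04, of which the former is -0.04 under median scaling and the latter -0.08 under quantile normalisation or median scaling.

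Since cells other than mMKs make the 9 transcripts, markers of other marrow cells were read on the same arrays. Stromal cells, the cells from which osteoblasts come, had 8 of 12 markers rise at 1 dpi and 7 at 3 dpi, with medians of 1.5 and 2.64 (6 and 8, with 0.95 and 2.2, under normexp with quantile normalisation), and Ebf3 rose by 2.40 and 4.10. These counts depend on the use of the brightest probe. At 3 dpi the probes that passed the filter ran from 0.42 to 4.07 for Lepr, 0.33 to 3.31 for Kitl and 0.41 to 4.74 for Pdgfra. In these genes the brightest probe gave the lowest value, whereas in Col3a1 (1.54 to 3.74) it gave the highest. The brightest stromal marker was Vcam1 in Ctrl (-0.14 at 1 dpi and 0.75 at 3 dpi, neither passing) and Cxcl12 after IR, which rose by 2.71 and 3.50. The summed linear level of the stromal markers was 22.6, 21.3 and 21.2 in Ctrl, 41.4, 38.2 and 41.6 at 1 dpi, and 71.3, 69.5 and 73.3 at 3 dpi. For the 9 osteoblast genes, with Spp1 the brightest, that sum was 2.49, 2.78 and 2.90 in Ctrl, 13.0, 11.2 and 12.4 at 1 dpi, and 16.9, 17.4 and 18.6 at 3 dpi. Both sums were higher on every 1 dpi array than in Ctrl and higher again on every 3 dpi array, and the part of stromal cells in the osteoblast result was not tested.

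Most adipocyte, endothelial and macrophage markers rose at 3 dpi, as Alpl and Bglap did, while at 1 dpi they were mixed. Of 7 adipocyte markers 2 rose at 1 dpi and 5 at 3 dpi (medians 0.80 and 1.77), of 7 endothelial markers 3 and 5 (0.62 and 2.01), and of 11 macrophage markers 5 and 9 (0.48 and 2.19). Under median scaling the 1 dpi medians were 0.49, 0.31 and 0.16, and 2 endothelial markers rose and 1 fell there. The macrophage marker Cd163 fell at 1 dpi (-2.07, adjusted p 0.000166), Mrc1 differed there by -0.54, and the endothelial marker Tek by -0.91. The macrophage sum, with Csf1r the brightest, was 45.5, 39.9 and 38.0 in Ctrl, 72.8, 66.6 and 69.6 at 1 dpi, and 131, 126 and 122 at 3 dpi. Gpnmb, a macrophage marker that osteoblasts also make, rose by 5.88 and 6.65, and Spp1 is likewise made by macrophages. Of 5 chondrocyte markers 0 rose at 1 dpi and 3 at 3 dpi (0 under normexp with quantile normalisation), with medians of 0.42 (-0.13 under quantile normalisation) and 1.25.

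Blood cell markers took other courses than the osteoblast genes. B cell markers fell, 7 of 8 at both times (medians -3.82 and -3.30), with sums of 28.9, 27.3 and 28.1 in Ctrl, 5.81, 5.56 and 5.73 at 1 dpi, and 5.52, 5.37 and 5.35 at 3 dpi. Of 8 erythroid markers 2 rose and 5 fell at 1 dpi and 7 fell at 3 dpi (medians -1.68 and -1.92). Their sum, with Hba-a1 the brightest, ran against that median at 1 dpi, with 105, 85.4 and 88.6 in Ctrl, 246, 200 and 197 at 1 dpi, and 33.5, 33.3 and 30.7 at 3 dpi. Of 9 neutrophil markers 2 rose at 1 dpi and 0 at 3 dpi (medians 0.48, or -0.12 under quantile normalisation, and 0.01), and 0 rose at 1 dpi under quantile normalisation or median scaling. Their sum, with Mpo the brightest, was 1016, 1085 and 1072 in Ctrl, 1817, 1689 and 1663 at 1 dpi, and 1142, 1019 and 1081 at 3 dpi. Which of these cells carried the Runx2, Alpl, Bglap or Spp1 signal was not tested, and bulk arrays cannot tell them apart.

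**Figure D5:**
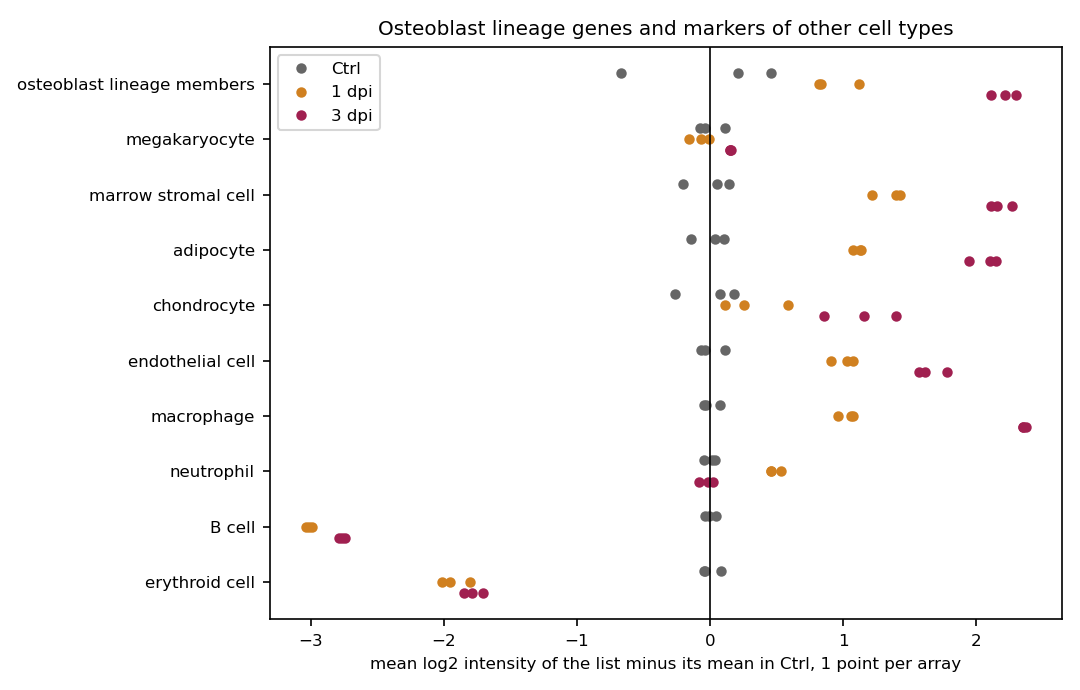
Mean log2 intensity minus its mean in Ctrl (horizontal axis) for the 9 osteoblast genes and the marker lists of marrow cell types (vertical axis), with 1 point for each array. Stromal and macrophage markers lie to the right of 0 after IR, and B cell markers to the left. The points are list means. The medians of the gene differences at 3 dpi, which are not drawn, were 2.64 for stromal, 2.19 for macrophage and -3.30 for B cell markers.

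Without Ctrl replicate 1, the count of osteoblast genes that changed was 4 at 1 dpi (Spp1, Bglap and Alpl higher, Bmp3 lower) and 6 at 3 dpi, while of all 29410 genes 2618 rose and 943 fell at 1 dpi, against 1836 rising and 536 falling at 3 dpi. The rises of Bglap, Alpl and Spp1 at 1 dpi and of Bglap, Alpl, Spp1 and Ibsp at 3 dpi passed under every one of the 21 settings tried. Not all settings are separate checks, since the slide as a block gave the same values as leaving out Ctrl replicate 1. Nearly all deposited log2 values likewise lay close to the quantile-normalised values of 1 probe. The rises of Dmp1 and Phex at 3 dpi each passed under 19 of the 20 settings that held them. Both failed under normexp with quantile normalisation, where they were 0.80 and 0.88. The rise of Dmp1 at 1 dpi failed under 15 settings of 20, and between the time points the rise of Dmp1 failed under 8 of 20, that of Bmp3 under 6 of 20 and that of Alpl under 4 of 21, where it was as low as 0.40. The rises of Bglap and Phex between the time points failed under 1 setting each, and that of Ibsp under 0.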

How the data were processed

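Total RNA of mMKs was hybridised to 9 single-colour arrays, 3 for each of Ctrl, 1 dpi and 3 dpi. The authors deposited scanner files with the processed intensity of each spot in arbitrary units, made with Agilent Feature Extraction 10.7.1.1 by the submitters' processing notes, and a table of log2 values that the authors computed from them. The methods text describes an Affymetrix chip, whereas the files are of an Agilent array. How the deposited log2 table was normalised, centred and reduced to probes is not stated. Of its 27068 rows with a gene name on the array, 27050 lay within 0.1 in log2 of the quantile-normalised values of 1 probe. The column medians of the deposited table ran from 5.79 to 5.87, and it was used only as an alternative. The files had 0 unused columns.

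The processed intensities of the 59305 non-control spots were averaged in log2 over the spots of each of 56605 probes, and the 75th percentile of each array was subtracted. Control spots were left out, as were spots the files mark as outliers and the 20 probes that had only such spots on some array. Probes were named through their RefSeq accessions, 32994 of them, and otherwise kept the array's gene name. A probe was kept if any group had it marked as above background by a clear margin on its full set of 3 arrays, which filters on the groups that are compared, and the brightest kept probe stood for each gene. A linear model of the 3 groups was fitted with limma 3.58.1 in R 4.3.3, with p adjusted over all 29410 genes by the Benjamini-Hochberg method, or over all 44300 kept probes where a single probe other than the brightest is described. Genes with adjusted p below 0.05 and at least a 2-fold difference count as called, that is, as having risen or fallen. Figures and promoter searches used Python 3.11.15, pandas 2.3.3 and matplotlib 3.10.9. The p-values measure the spread between arrays, and 3 arrays per group limit the precision. The script was tested on simulated data.

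The 9 members are the genes whose array gene name is on the given list, and the other lists were written by hand from general knowledge: osteoblast transcription regulators, bone matrix and mineralization, osteocyte genes, BMP pathway, Wnt pathway in bone, osteopontin and bone sialoprotein receptors, osteoclast and its coupling to osteoblasts, and markers of megakaryocyte, marrow stromal cell, adipocyte, chondrocyte, endothelial cell, macrophage, neutrophil, B cell and erythroid cell. The members and these lists were chosen with earlier results of these data known. Alternatives were quantile normalisation, median scaling, normexp background correction with quantile normalisation, no filter on dim probes, the deposited log2 values, the replicate number or the slide as a block, the mean over probes, only the 2 groups compared, the methods' t-test, no minimum fold, and leaving out each array. A filter on all 9 arrays and differences relative to the all-gene median were added after the data had been seen.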

Additional observations from a re-analysis of the deposited data

Results flagged for a closer look

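The difference between the time points was tested in the model of all 9 arrays, and 6 of the 9 osteoblast genes were higher at 3 than at 1 dpi, where 3.97% of all genes were higher and 4.82% lower. The count was 3 under some of the other settings tried, among them the filter on all 9 arrays, which left 6 members. Of the 6 genes, Dmp1, Phex and Bmp3 passed the main filter only through the 3 dpi arrays. Their count therefore cannot serve as support for a difference between the time points. In log2 the differences were 1.21 for Bglap, 1.01 for Alpl, 1.29 for Ibsp, 1.72 for Dmp1, 2.04 for Phex and 4.85 for Bmp3. On the 1 dpi arrays Dmp1 was well above background on 0 of 3 and Phex and Bmp3 on 1 of 3, so the sizes of these 3 differences are uncertain. The cause was not tested.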

How the results depend on the processing

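The 4 members called at 1 dpi, 6 at 3 dpi and 6 between the time points were set against the alternatives. The Runx2 difference at 3 dpi, -0.35, reversed to 0.62 (adjusted p 0.0368) in the deposited log2 values, which hold another Runx2 probe, and to 0.12 (adjusted p 0.494) as a mean over probes. With normexp and quantile normalisation the genes called were 1667, 1147 and 1088 in place of 4468, 2587 and 2588, and 3 members were called between the time points. Without a minimum fold they were 16443, 9416 and 13125, with 7 members at 1 dpi. Without a filter on dim probes 4489 genes were called between the time points. Members called between the time points were 3 as a mean over probes, 3 without 1 dpi replicate 2, 3 without 3 dpi replicate 2 and 3 with the filter on all 9 arrays, which was added after the data had been seen and left 6 members. Leaving out each array in turn gave 3561 to 5367, 2347 to 2768 and 2264 to 2812 genes, and 3 to 6, 6 to 6 and 3 to 6 members. With the replicate number as a block the genes were 4273, 2498 and 2494 and the members 3, 6 and 4, and correlations of same-numbered arrays ran from -0.107 to 0.128, which gives no sign of pairing. Of the genes called at 1 dpi 81.1% were higher, but 56.3% under quantile normalisation, 48.8% under median scaling, 68.7% under normexp and 50.3% in the deposited log2 values, so that the balance of higher and lower among the genes called at 1 dpi depended on the scaling. At 3 dpi these shares were 79.4%, 71.5%, 71.9%, 79.6% and 68.8%, and between the time points 45.2%, 62.9%, 67.2%, 52.7% and 64.1%. Dmp1 at 1 dpi ran from 0.11 to 2.28 and lost its call in 15 of 20 settings, whereas Bglap at 3 dpi ran from 2.43 to 3.87, Alpl from 1.77 to 2.76, Spp1 from 2.98 to 3.18 and Ibsp from 1.49 to 2.08, and kept theirs. At 3 dpi Dmp1 ran from 0.80 to 3.99 and Phex from 0.88 to 3.24, each lowest under normexp, where both lost their call and 4 members were called. Intensities near background bound the dim probes of Dmp1, Phex and Bmp3 from below. The cause of these shifts was not tested.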

Other observations

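The deposited log2 table holds a single probe for each gene name, and for 3 of the 9 osteoblast genes this is not the brightest probe. For Runx2 it is the dim probe at chr17:44951128-44951187, with group medians of 3.86, 4.52 and 4.55 in Ctrl and at 1 and 3 dpi. For Sp7 it is the probe that was dim on all 9 arrays (1.42, 1.43 and 1.62), and for Phex the dimmer of its probes (2.34, 3.42 and 5.02). For Bglap the medians were 7.38, 9.86 and 11.08, for Alpl 6.83, 8.44 and 9.43, for Ibsp 6.81, 7.25 and 8.74, and for Spp1 10.74, 13.42 and 13.85. For Dmp1 they were 2.5, 3.98 and 5.84, and for Bmp3 8.12, 3.37 and 8.86. Under the unpaired t-test that the methods name, with unadjusted p below 0.05 and no minimum fold, 5 of the 9 members and 15674 genes passed at 1 dpi, 7 members and 10523 genes at 3 dpi, and 9 members and 16909 genes between the time points.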
